A study of Drosophila melanogaster with 6 samples.

Results

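Digestive lipases split dietary fat so that the gut can absorb it. The genes described here are 10 lipase genes of Drosophila melanogaster, mag (magro), CG6271, CG6277, CG6283, CG6295, CG6296, CG8093, CG17192, CG18301 and CG31089, measured in whole adult females on a high-fat diet (HFD) and on a regular diet (RD). A gene was read from each probe set that the array annotation assigns to it alone. By that rule 9 of the 10 genes had a probe set, 1 each, out of 11983 genes with such a probe set. CG6277 had none, since its probe set is shared with CG6271, so 9 genes have values.

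All flies were w1118 females, a white-eyed laboratory strain, put on their food at day 3 to 5 of adult life, kept on it for 1 week in normal oxygen and frozen at 10 to 12 days. The HFD flies received food with coconut oil at 20% weight per volume, and the RD flies the commercial Jazz-Mix food. Whole-body total RNA was labelled with biotin and measured on Affymetrix arrays, 3 per diet. The labels give neither the number of flies per sample nor whether the samples of a diet came from separate vials, so the p-values measure the spread between these samples, which may be technical.

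In the fly, fat is digested mainly in the midgut, where enterocytes secrete lipases into the lumen and take up the released fatty acids, and rebuild them into fat that leaves the gut in lipoproteins. The genes belong to a pair of lipase families. CG6271, CG6277, CG6283, CG6295, CG6296 and CG17192 are predicted neutral lipases, related to the pancreatic lipases of mammals, and lie side by side on chromosome arm 3R. mag, CG8093, CG18301 and CG31089 belong to the acid lipase family, related to mammalian gastric and lysosomal acid lipase. mag is the best studied of them: it is secreted into the gut, breaks down triacylglycerol, also acts on cholesterol esters, and is a target of the nuclear receptor Hr96. The others are known mostly from their sequence.

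The deposited values are MAS5 signals, 1 per probe set, on a linear scale. Of 18769 probe sets that are not controls, 11261 had a mean log2 signal above the 40th percentile, which corresponds to a signal of 27.95 and is called the filter level here, and were tested between diets with limma on the log2(signal + 1) scale. Each log2 fold change subtracts RD from HFD, is given with the standard error of that fit, and understates the change of dim probe sets. Adjusted p-values are Benjamini-Hochberg values of the limma fit over all 11261 probe sets, with a threshold of 0.05. Array medians were 60.7 to 63.8 on HFD and 52.8 to 55.3 on RD, while the fold changes of all tested probe sets had a median of 0.0083 on the log2 scale. The number of arrays limits the precision of every value, and the signals of different genes cannot be ranked against each other, since probe sets bind with unequal strength.

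Of the 10 lipase genes, 8 were tested with limma, 4 fell on HFD and none rose, and at an unadjusted p under 0.05 5 were lower and 0 higher. CG6296, CG17192 and CG8093 fell, by 2.89-fold, 1.96-fold and 1.81-fold. CG18301 also passed as lower, but it entered the test only through its RD signals, so the size of its fall is poorly measured. Without it, 3 of 7 tested genes fell. CG6271, mag, CG6283 and CG6295 did not pass, and CG31089 was too dim to be tested. Over all tested probe sets 6.63% passed as lower in HFD, 12.9% as higher, and 19.5% in either direction. At an unadjusted p under 0.05 these shares are at least as large, but they were not counted. The unadjusted counts, here and for the other lists, therefore have no share beside them. For 5 of the 8 tested genes every HFD array lay below every RD array, as it did for 18.7% of all tested probe sets. The genes were chosen with earlier results of these data known, so these counts are a description. In whole bodies, fewer cells of a type and less RNA per cell cannot be told apart.

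**Figure D1:**
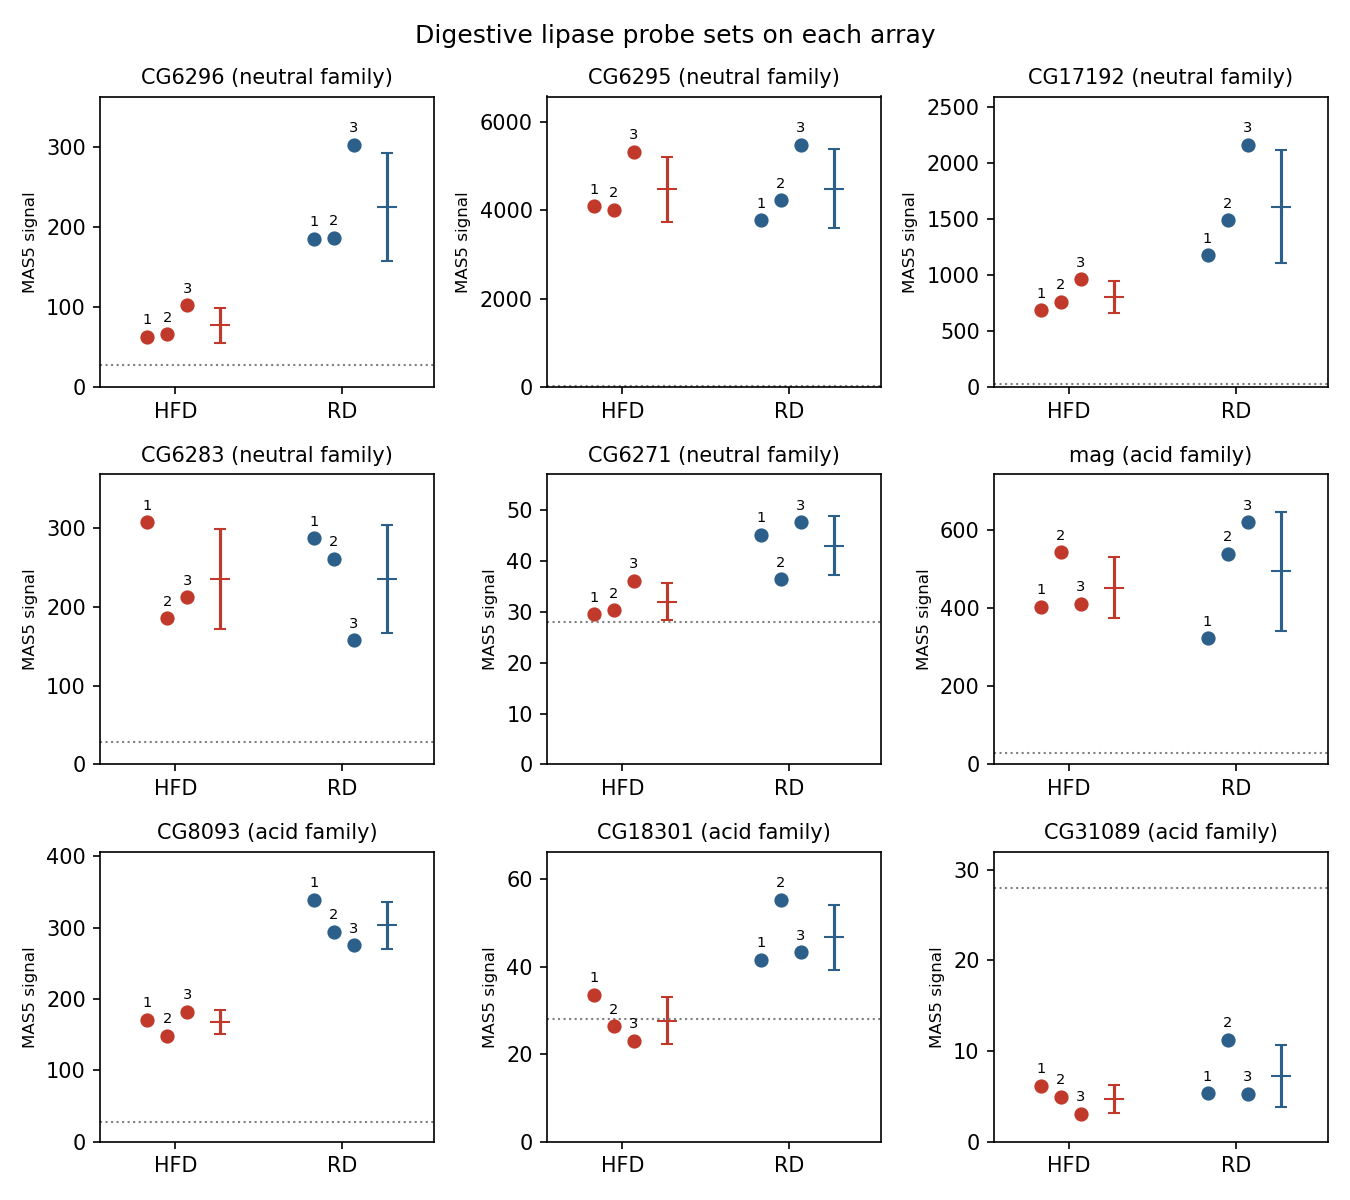
MAS5 signal (y axis, linear, from 0) of the 9 lipase genes on the 3 HFD arrays (red) and 3 RD arrays (blue), numbered by replicate, with the mean and SD beside the points and the filter level as a dotted line. The HFD points of CG6296, CG17192, CG8093, CG18301 and CG6271 all lie below the RD points, those of mag, CG6283, CG6295 and CG31089 overlap, and CG31089 lies under the filter level on all 6 arrays.

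The neutral lipase genes form a run along 3R in the RefSeq Release 6 gene order: CG6296, CG6295, CG17192, CG17191, CG6283, CG6277 and CG6271, with no other protein-coding gene between them. CG6296, at one end of the run, had signals of 62.8, 66.2 and 102 on the HFD arrays and 186, 187 and 303 on the RD arrays. Every HFD array lay below every RD array, and the third array of each diet was the highest. The mean was 77.1 ± 21.9 on HFD and 225 ± 67.4 on RD (SD, n = 3 each), a log2 fold change of -1.53 ± 0.24 (limma, adjusted p = 0.00585).

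CG6295, the next gene along, had signals of 4089, 4011 and 5331 on HFD and 3774, 4227 and 5482 on RD. The diets overlapped completely, and the third array was again the highest of each diet. The means were 4477 ± 741 on HFD and 4495 ± 885 on RD (SD, n = 3 each), and the log2 fold change did not pass, with a 95% interval of -0.35 to 0.35 (limma, adjusted p = 0.9996). A fall or a rise within that interval cannot be told from no change with these 3 arrays a diet.

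CG17192 follows CG6295 on the chromosome. Its signals were 684, 759 and 959 on HFD and 1178, 1487 and 2161 on RD. The groups did not overlap, and the highest HFD array and the highest RD array both carried the number 3. The mean was 801 ± 142 on HFD and 1608 ± 503 on RD (SD, n = 3 each), and the log2 fold change was -0.97 ± 0.21 (limma, adjusted p = 0.0177). The call was lost without HFD array 1 or HFD array 2 (adjusted p = 0.0715 and 0.0529), with log2 fold changes of -0.87 and -0.94.

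CG6283 and CG6271 lie toward the far end of the run. The signals of CG6283 were 308, 186 and 213 on HFD and 288, 262 and 158 on RD, and overlapped. Its log2 fold change was 0.011 ± 0.25, with a 95% interval of -0.58 to 0.60 (limma, adjusted p = 0.978), the widest among the 8 tested. CG6271 was dim, at 29.5, 30.4 and 36.1 on HFD and 45.1, 36.4 and 47.6 on RD. All its HFD signals lay below the RD signals, the nearest by a small margin, and the log2 fold change of -0.41 ± 0.16 did not pass (limma, adjusted p = 0.107). It passed under quantile normalization (-0.59, adjusted p = 0.0497) and with each array centred on its median (-0.62, adjusted p = 0.0174).

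Neighbours in the run thus had unequal values. Any scaling of whole arrays drops out of ratios within an array. The change of such a ratio between diets restates the fold changes above, the first gene's minus the second's, and is no separate result. Only the change of such a ratio between diets can be read, not its level. The log2 signal difference of CG6296 over CG6295 was -5.86 ± 0.16 on HFD and -4.33 ± 0.16 on RD (SD, n = 3 each), a difference of -1.53 without overlap. That of CG17192 over CG6295 was -2.48 ± 0.089 on HFD and -1.51 ± 0.17 on RD, again without overlap. CG6296 over CG17192 was at -3.38 ± 0.15 on HFD and -2.82 ± 0.16 on RD, so CG6296 was lower relative to CG17192 on every HFD array. Each of these differences had a two-sided exact permutation p of 0.1, the smallest that 3 against 3 arrays allow, and 0.175 after adjustment over the 7 pairs compared. CG6283 over CG17192 (exact permutation p = 0.2) and CG6271 over CG6283 (exact permutation p = 0.6) overlapped between diets. The pairs were chosen after the values were seen.

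**Figure D2:**
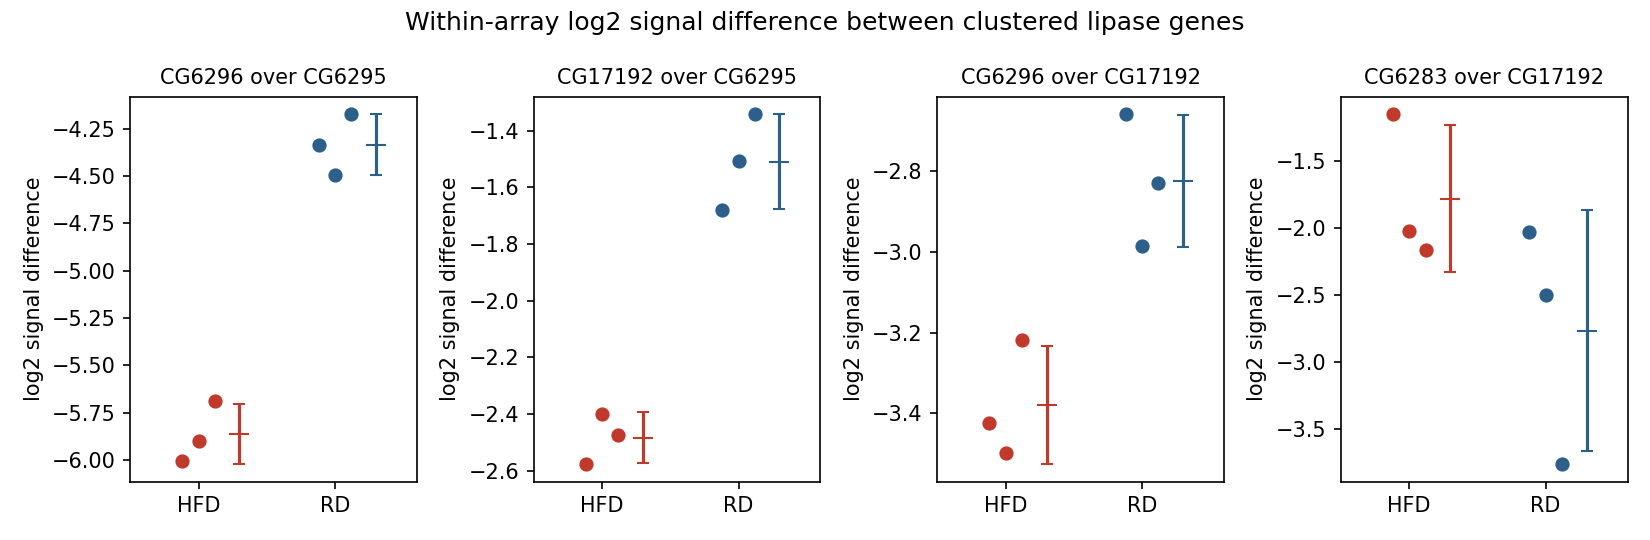
Log2 signal difference within each array (y axis, not starting at 0) between lipase genes of the 3R run, for 3 HFD arrays (red) and 3 RD arrays (blue), with mean and SD beside the points. The first 3 pairs do not overlap between diets, and CG6283 over CG17192 does.

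Within a diet, several genes of the run were high on the same arrays. CG6296, CG6295, CG17192 and CG6271 each had their highest signal on array 3 in both diets, a pattern held by 8.23% of all tested probe sets. Relative to the diet mean, array 3 stood at 0.44 (HFD) and 0.47 (RD) for CG6296, at 0.26 and 0.30 for CG6295 and at 0.27 and 0.47 for CG17192, all on the log2 scale. CG6283 went the other way, with its highest signal on array 1 in both diets. In CG6271 the lead of array 3 on RD was small (47.6 against 45.1 on array 1). Within each diet the spread of CG6296, CG6295 and CG17192 thus ran alike, and genes of the run are not independent observations. Equal array numbers do not pair the diets, so the same number being highest in both is only a description. Related lipases may also bind the same probes, which was not tested.

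Among the acid lipases, mag had signals of 403, 542 and 411 on HFD and 323, 539 and 619 on RD. The HFD arrays lay inside the range of the RD arrays, whose lowest was RD array 1. The mean was 452 ± 77.9 on HFD and 493 ± 153 on RD (SD, n = 3 each), and the log2 fold change of -0.087 ± 0.23 did not pass (limma, adjusted p = 0.812). Its 95% interval of -0.62 to 0.45 still holds changes of moderate size either way. Without RD array 1 the estimate was -0.37 (limma, adjusted p = 0.0968), and after adjusting for the 3'/5' ratio of control transcripts it was 0.48 (adjusted p = 0.297), so neither sign nor size of a change in mag was settled.

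CG8093 had signals of 171, 149 and 182 on HFD and 339, 294 and 276 on RD. The diets did not overlap, and the spread within each was small. Its mean was 167 ± 16.9 on HFD and 303 ± 32.4 on RD (SD, n = 3 each), and the log2 fold change was -0.85 ± 0.12 (limma, adjusted p = 0.00341). CG8093 passed in each of the 18 alternatives run, with values of -1.06 to -0.70 and an adjusted p of at most 0.0199.

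CG18301 lies between its relatives Lip4 and CG18302 on arm 2L. Its signals were 33.6, 26.4 and 23.1 on HFD and 41.6, 55.2 and 43.3 on RD. No HFD signal reached the lowest RD signal, and 2 of the 3 HFD signals lay under the filter level, so this gene was tested only through its higher RD signals and the size of its fall is poorly measured. The log2 fold change was -0.74 ± 0.19 (limma, adjusted p = 0.0293), and 4 of the 6 fits that left out 1 array lost the call, namely the fits lacking HFD array 2 or 3 (adjusted p = 0.0855 and 0.0682) and RD array 2 or 3 (adjusted p = 0.0998 and 0.0754).

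CG31089, which neighbours its relative CG31091 on 3R, had signals of 6.20, 4.97 and 3.11 on HFD and 5.36, 11.3 and 5.29 on RD. All 6 lay under the filter level and the groups overlapped, so no change can be read from it. Against mag, within arrays, the log2 signal difference of CG8093 was -1.42 ± 0.38 on HFD and -0.65 ± 0.64 on RD (SD, n = 3 each), without overlap (exact permutation p = 0.1, 0.175 adjusted). The diets nearly touched, at -1.171 on HFD array 3 and -1.164 on RD array 3. CG18301 over mag overlapped between diets (exact permutation p = 0.2).

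A measure related to RNA length had a higher mean on HFD for all 3 control transcripts, without overlap between diets for 1 of them. For the actin control transcript, the 3' signal divided by the 5' signal, a ratio that is larger for shorter RNA or labelled copies, was 8.86 ± 0.479 on HFD and 6.15 ± 1.53 on RD (SD, n = 3 each, exact permutation p = 0.1). For eIF-4a it was 10.3 ± 0.806 on HFD and 7.78 ± 2.09 on RD, and for GAPDH 2.42 ± 0.147 on HFD and 2.16 ± 0.235 on RD, both overlapping (exact permutation p = 0.2 each). With the log2 ratio, averaged over the controls for actin, GAPDH and eIF-4a, in the model, CG8093 was the only lipase that passed (-1.04, limma, adjusted p = 0.0199). CG6296 kept its size there (-1.50) with a larger standard error of 0.37 and did not pass (adjusted p = 0.0866), and CG17192 and CG18301 were at -0.72 and -0.55 (adjusted p = 0.277 and 0.375).

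Beyond these 10, 41 other genes of both lipase families were listed, of which 40 had a probe set of their own and 15 were bright enough to be tested. Of those 15, 2 fell and none rose in the limma fit (2 lower and 1 higher at an unadjusted p under 0.05), where 6.63% of all tested probe sets passed as lower. The difference between these genes and the digestive lipases, which were chosen with results known, was not tested. Median log2 fold changes were -0.58 over the 8 digestive lipases tested (-0.41 without CG18301) and -0.16 over the 15 others, beside 0.0083 over all tested probe sets. CG5162, a neutral lipase, had signals averaging 167 on HFD and 305 on RD (-0.85 ± 0.14, limma, adjusted p = 0.0068). CG7329, an acid lipase, averaged 83.7 on HFD and 148 on RD (-0.81 ± 0.18, limma, adjusted p = 0.0202), a call that was lost without RD array 3, HFD array 2 or HFD array 3 (adjusted p = 0.0646, 0.0662 and 0.0502). CG31871 had the highest fold change of the 15, 0.55 ± 0.23, and did not pass (adjusted p = 0.131). The count of other lipases that fell was 8 with each array centred on its median, a step that shifted the median over tested probe sets by -0.21, and 0 after adjusting for the 3'/5' ratio, where CG7329 was at -0.91 and CG5162 at -0.55.

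**Figure D3:**
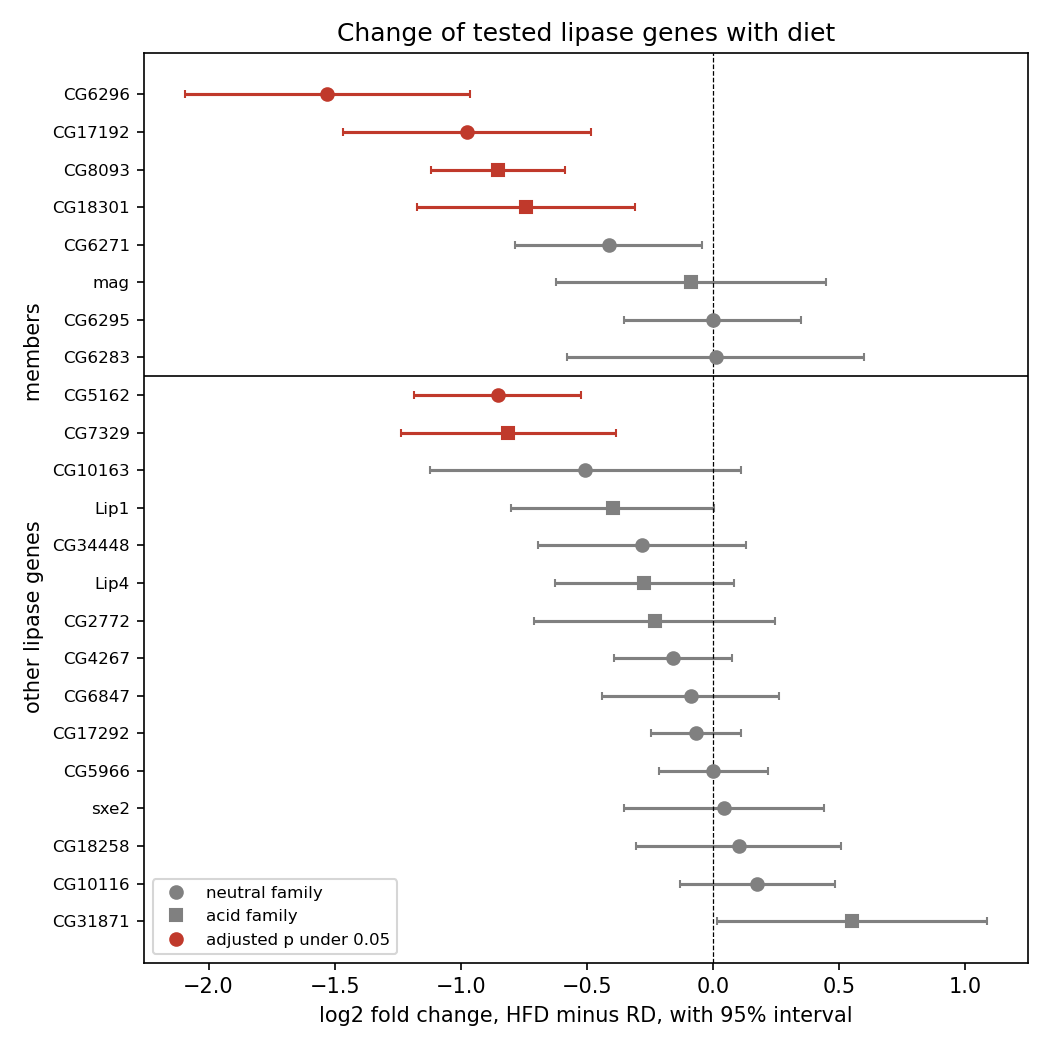
Log2 fold change (x axis, HFD minus RD) with its 95% interval for the 8 tested digestive lipases (above the line) and the 15 other tested lipase genes (below it), circles for the neutral and squares for the acid family, red where the adjusted p was under 0.05. CG6296 lies farthest left at -1.53, and no gene in red lies right of 0.

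A list of regulators, some known to act on digestive enzymes and others on metabolism or signalling more broadly, was read in the same RNA. Of 11 tested regulators, 4 rose and none fell (limma, 5 and 0 at an unadjusted p under 0.05), where 12.9% of all tested probe sets passed as higher. The Gli-like transcription factor sug (sugarbabe), a factor of sugar-fed gut and fat body, averaged 468 on HFD and 307 on RD (0.60 ± 0.11, limma, adjusted p = 0.0105). The TGF-beta ligand daw (dawdle), known for lowering digestive enzyme expression in sugar-fed flies, averaged 343 on HFD and 247 on RD (0.47 ± 0.091, adjusted p = 0.0113). bigmax and Mondo, partners in a sugar-sensing transcription factor, rose by 0.26 and 0.24 on the log2 scale. Hr96, the receptor with mag among its targets, did not pass (-0.075 ± 0.076, adjusted p = 0.505), nor did foxo (-0.11 ± 0.073, adjusted p = 0.313). With each array centred on its median, daw, bigmax and Mondo no longer passed, and Hr96 and foxo passed as lower (-0.28 and -0.32). Without RD array 3, daw, bigmax and Mondo did not pass (adjusted p = 0.0515, 0.0835 and 0.0902), and bigmax and Mondo were also lost without HFD array 2 or HFD array 3. After adjusting for the 3'/5' ratio, sug, daw, bigmax and Mondo were at 0.68, 0.46, 0.25 and 0.23, close to their values without it, with larger standard errors, and none passed (adjusted p = 0.0777 to 0.201).

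Steps after digestion were read against the 19.5% of all tested probe sets that passed in either direction. Of 10 tested genes of fat uptake, re-esterification and export, 1 fell, apolpp, the precursor of the main haemolymph lipoprotein (-0.52 ± 0.089, limma, adjusted p = 0.0073), and none rose (limma, 4 lower and 1 higher at an unadjusted p under 0.05). Of 8 tested genes of intracellular fat storage and lipolysis, the phosphatidate phosphatase gene Lpin (0.66 ± 0.077) and puml (0.27 ± 0.066), related to the mammalian lipase activator CGI-58, rose, and dob (-0.22 ± 0.062), a relative of the fat storage lipase bmm, fell. bmm itself was at -0.017 ± 0.051 (adjusted p = 0.836). The calls of puml and dob were lost in 4 and 5 of the 6 fits without 1 array, while Lpin passed in all of them. After adjusting for the 3'/5' ratio Lpin passed, and apolpp, puml and dob did not, at -0.33, 0.19 and -0.23. Hsl, the hormone-sensitive lipase gene, had no probe set of its own here.

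Midgut marker genes, of the tissue that makes digestive lipases, were set beside them. Of 16 listed midgut genes 12 were tested, none fell and 1 rose (limma, 0 and 1 at an unadjusted p under 0.05), while 4 lipases fell (3 without CG18301). Of all tested probe sets, 6.63% passed as lower and 12.9% as higher, the shares to set beside every marker count here. The summed signal of the midgut list was 8200 to 9322 on HFD and 7394 to 9987 on RD, a sum to which the 3 brightest genes, cad, Ssk and mesh, gave 64.4%. In whole-body RNA, expression of these genes outside the midgut was not separated, so the sum is not a measure of midgut alone. Taken singly, 11 of the 12 overlapped between diets, and the share of all tested probe sets that overlapped was not counted. Of the 12, 0 had all HFD arrays below all RD arrays, against 18.7% of all tested probe sets. The enterocyte gene mex1 averaged 729 on HFD and 777 on RD (-0.089 ± 0.12, limma, adjusted p = 0.617). Log2 fold changes of the 12 markers ran from -0.099 to 0.995. The gene that rose, pros, marks enteroendocrine cells and also neurons (0.995 ± 0.23, adjusted p = 0.0205), a call that was lost in 4 of the 6 fits without 1 array, at values of 0.98 to 1.01, and after adjusting for the 3'/5' ratio, at 0.37. In the same RNA 6 of 6 tested neuron markers and 4 of 5 muscle markers rose, with summed signals of 1119 to 1255 on HFD against 520 to 803 on RD for neurons and of 3090 to 3993 against 1511 to 2038 for muscle. Ovary markers fell for 4 of 6 tested genes, with summed signals of 31442 to 36656 on HFD and 43668 to 45364 on RD, and fat body markers for 3 of 7, with 12622 to 14737 on HFD and 16672 to 19976 on RD (limma, 3 lower and 1 higher at an unadjusted p under 0.05). Of these 3, Lsp2 had all HFD signals under the filter level. It entered the test only through its RD signals and is part of the summed signal. Another fat body marker, Col4a1, was higher on every HFD array than on any RD array and did not pass (0.61 ± 0.19, adjusted p = 0.054). What part such shifts between tissues have in the lipase values was not tested.

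**Figure D4:**
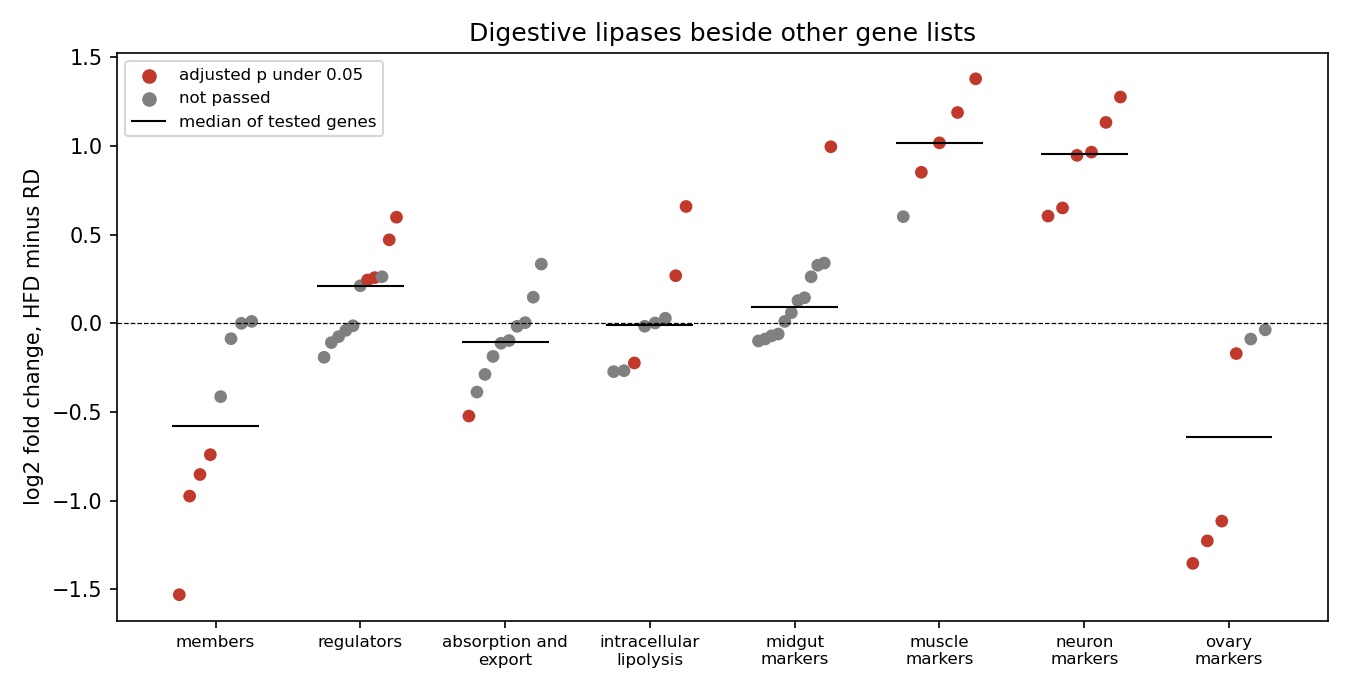
Log2 fold change (y axis, HFD minus RD) of each tested gene in the digestive lipases and in 7 other lists, red where the adjusted p was under 0.05, with a line at each median. The lipase median of -0.58 (-0.41 without CG18301) lies below the midgut marker median of 0.094, while muscle and neuron markers lie above 0. Fat body markers are not plotted.

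Genes with array profiles most like those of mag and CG6296 were sought among 8688 other tested genes, by the root-mean-square distance of log2 signals centred on each gene's mean over the 6 arrays. Closest to mag were CG30195, Cpr67Fa1, Lsd-1, Srr and CG42449, at distances of 0.162 to 0.183. CG30195 had 2 HFD signals and 1 RD signal under the filter level, and Cpr67Fa1 was dim as well, so their profiles are noisy. Cpr67Fa1 codes for a cuticle protein and Lsd-1 for a perilipin that coats lipid droplets. Closest to CG6296 were Npc2d, CG13325, CG3841, Jon44E and CG31463, at distances of 0.186 to 0.269. CG3841 had 1 HFD signal under the filter level. Whether the diets overlap in these genes follows from how they were chosen. Npc2d codes for a sterol-binding protein of the Niemann-Pick C2 family and averaged 135 on HFD and 391 on RD. Jon44E, a digestive serine protease gene, averaged 203 on HFD and 542 on RD. All profiles come from the same 6 arrays, so likeness includes what those arrays share.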

How the data were processed

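RNA of whole w1118 females was measured on 6 arrays, 3 HFD and 3 RD, with groups taken from the sample titles. The authors deposited intensity values on a linear scale, computed by MAS5 per the submitters' processing notes, which give no version. MAS5 gives 1 signal per probe set and usually scales arrays to a common mean, and dim signals are noisy: with tested probe sets split into 4 groups by signal, the within-diet SD (log2) had a median of 0.206 for the dimmest and 0.0742 for the brightest. No detection calls and no scan batches were used here.

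Control probe sets were left out, 1 was added before log2, and probe sets with a mean above the 40th percentile were tested with a two-sided limma test (version 3.58.1, R 4.3.3), using lmFit, eBayes with trend, and Benjamini-Hochberg adjustment. No further normalization was applied. On simulated data for this comparison, over 11261 probe sets, log2 changes of 0.5, 1 and 2 were called in 80.6%, 100% and 100% of altered probe sets, with 5.08% false among the calls. The simulated noise was independent between arrays and probe sets, with an SD set by signal alone. Recovery is therefore overstated for genes with a larger spread, such as mag and CG6283. The simulation altered 200 probe sets, while 2196 passed in the data, and it held no shift shared between probe sets. Its false share is therefore not a measure for these arrays.

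The annotation gave a single symbol for 13647 probe sets, more than 1 for 402 and no symbol for 4720. Gene order came from RefSeq Release 6, without coordinates, since the array annotation names no build. Members and gene lists were chosen with earlier results of these data known. Named were the members, up to 8 other lipases and up to 4 genes per other list past the threshold, a few regulators and lipases whatever their result, and the 5 nearest profiles to mag and CG6296. CG31871, mex1, Col4a1, Lsp2, cad, Ssk, mesh, and the genes in the closing observations were named after their values were seen. Genes with several tested probe sets were read from the brightest. Equal replicate numbers were checked for pairing: the deviations of same-numbered arrays from their diet mean correlated at 0.0719, 0.102 and 0.0271, which does not pair them. Alternatives were other normalizations, added constants, filters, variance models, array weights, a replicate block, the control 3'/5' ratio and leaving out arrays. Plots used matplotlib 3.10.9 under Python 3.11.15.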

Additional observations from a re-analysis of the deposited data

How the results depend on the processing

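The directions of the 4 calls held in every alternative that tested them. Members that fell numbered 2 of 5 tested with the filter at the 60th percentile, where CG6296, CG18301 and CG6271 were too dim, 1 after adjusting for the 3'/5' ratio, and 2 to 4 without 1 array, with 2 without HFD array 2. Members that rose numbered 0 in every alternative. Other lipases that fell numbered 8 with median centring, 1 with the stricter filter, 7 with array weights, 0 with the 3'/5' ratio and 1 to 2 without 1 array (1 without RD array 3, HFD array 2 or HFD array 3), and those that rose 3 with array weights, 0 to 1 without 1 array (1 without RD array 1) and 1 without both arrays numbered 1. With array weights CG6271 and CG6295 passed as lower (-0.59 and -0.36), and CG6271 was at -0.59 with quantile normalization and -0.62 with median centring. With the 3'/5' ratio CG6296, CG17192 and CG18301 were at -1.50, -0.72 and -0.55. The cause was not tested. Without 1 array, log2 fold changes were -1.75 to -1.30 for CG6296, -1.18 to -0.74 for CG17192, -0.92 to -0.77 for CG8093, -0.88 to -0.62 for CG18301, -0.53 to -0.34 for CG6271, -0.37 to 0.10 for mag, -0.13 to 0.15 for CG6295 and -0.25 to 0.18 for CG6283. With the replicate number as a block, CG6296 was at -1.53 with a standard error of 0.12, no call among the 36 results changed, and 2560 probe sets passed in all, against 2196. Not every array correlated best with its own number. Signals near the level of the filter limit CG18301 and CG6271.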

Other observations

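The probe set shared by CG6271 and CG6277 had signals of 89.3, 96.3 and 71.5 on HFD and 89.6, 70.0 and 57.1 on RD. These overlapped, and the log2 fold change of 0.26 ± 0.19 did not pass (limma, adjusted p = 0.363), while the probe set of CG6271 alone was lower on every HFD array. The signal of the shared probe set cannot be divided between the genes.

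CG31091, the acid lipase gene next to CG31089 on 3R, was removed by the filter, with signals of 12.9, 12.8 and 10.2 on HFD and 32.7, 32.3 and 63.9 on RD. Its 3 RD signals lay above the level of the filter and its 3 HFD signals below it. Without the filter it passed as lower (limma, adjusted p = 0.00785 over 18769 probe sets), and the size of the fall was not measured. CG17191, the gene between CG17192 and CG6283 in the 3R run, was dim on all arrays, with 12.1, 4.98 and 4.28 on HFD and 14.5, 12.5 and 15.5 on RD, and did not pass without the filter (adjusted p = 0.122).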
